A study of Xenopus tropicalis x Xenopus laevis and Xenopus laevis and Xenopus tropicalis with 8 samples.

Results

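The GATA factors are zinc finger transcription factors named after the DNA letters they bind, and 13 of the 34647 transcripts in the abundance table carried the symbol of one of them. Members were all *X. laevis* and *X. tropicalis* transcripts whose symbol was gata followed by a digit, which leaves out the *gatad* genes. Of the 13, 8 were among the 20611 *X. laevis* transcripts and 5 among the 14036 *X. tropicalis* transcripts. By symbol there were 4 transcripts of *gata2*, 2 of *gata3*, 1 of *gata4*, 4 of *gata5* and 2 of *gata6*. The table analysed here held 0 transcripts named *gata1*, *gata4* appeared only as an *X. tropicalis* transcript and *gata6* only as *X. laevis* transcripts. *X. laevis* is allotetraploid, and the identifiers do not say whether rows that share a symbol are the 2 homeologous copies of a gene or pieces of 1 copy.

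Whole embryos of the 2 frog species and of both hybrid crosses were collected at stage 9, 9 h after fertilization, when the embryo begins to transcribe its own genome, and polyA RNA was sequenced. The groups were wild type *X. laevis*, the le × ts hybrid (*X. laevis* egg, *X. tropicalis* sperm), the te × ls hybrid (*X. tropicalis* egg, *X. laevis* sperm) and wild type *X. tropicalis*, with no other treatment that sets them apart. Each of the 4 groups had 2 libraries, numbered 1 and 3. According to the paper the le × ts hybrid is viable, whereas the te × ls hybrid dies as a late blastula, during the activation of its genome. The labels do not say how close to death the collected te × ls embryos were. The series text calls the replicates biological without saying what was independent between them, so that p-values measure only the spread between these libraries.

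In vertebrates *gata1*, *gata2* and *gata3* are known for blood formation, and *gata2* and *gata3* also mark ventral and non-neural ectoderm of the frog embryo downstream of BMP signals. The genes *gata4*, *gata5* and *gata6* act in endoderm and heart, and in the frog embryo they lie downstream of Nodal signals and of Sox17 and Mix factors. GATA proteins work with cofactors such as Fog proteins (*zfpm1*, *zfpm2*) and with complexes built on Ldb1 and LIM-only proteins.

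Values are TPM, a measure of transcript abundance that is scaled for transcript length and for the size of the library. Reads with more than 1 target had been discarded, so a level also depends on how much of a row's sequence is its own. Levels of different genes can therefore be compared only roughly. The 8 libraries summed to between 999146 and 999534 TPM over both species. The number of reads behind each library was estimated from the ratios of low TPM values between libraries, and relative to *X. laevis* replicate 1 it was lowest in *X. tropicalis* replicate 3 (0.357) and le × ts replicate 3 (0.439), and highest in te × ls replicate 1 (1.68). Transcripts of the sperm species made up 0.678% and 1.02% of TPM in le × ts and 0.355% and 0.429% in te × ls, against 0.293% and 0.332% *X. tropicalis* TPM in *X. laevis* embryos and 0.124% and 0.230% *X. laevis* TPM in *X. tropicalis* embryos. Of 15 egg and blastula markers 14 had a row, and 30 of 33 *X. laevis* and 14 of 16 *X. tropicalis* transcripts of that list reached 1 TPM in both embryo libraries of their own species. Of 17 markers of later tissue only 7 had a row, so that the others could not be seen. Those with a row summed to 15.3 and 31.1 TPM in *X. laevis* embryos, where 1 *myod1* transcript gave 5.81 and 22.8 TPM. In *X. tropicalis* embryos they summed to 74.5 and 147 TPM, where *ins* alone gave 64.0 and 136.0 TPM. Cells of a type and RNA per cell cannot be told apart in whole embryos.

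GATA transcripts were scarce in every library. Of the 104 values of the 13 transcripts, 52 were 0, 46 lay above 0 and under 1 TPM, and 6 reached 1 TPM or more, the highest being 3.123 TPM. Under 1 TPM in every library were 10 of the 13 transcripts, and the other 3 were 1 *X. laevis gata5*, 1 *X. tropicalis gata5* and the *X. tropicalis gata2* transcript. Summed over all members, *X. laevis* GATA transcripts gave 1.799 and 1.83 TPM in *X. laevis* embryos, 2.195 and 2.435 in le × ts and 0.448 and 0.493 in te × ls. The *X. tropicalis* members gave 4.053 and 4.301 TPM in *X. tropicalis* embryos, 3.531 and 1.782 in te × ls and 0.21 and 0 in le × ts. Both sums were 0 in the 2 libraries of the other pure species, so that wherever a sperm-species GATA value in a hybrid was above 0, the egg species was listed at 0.

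**Figure D1:**
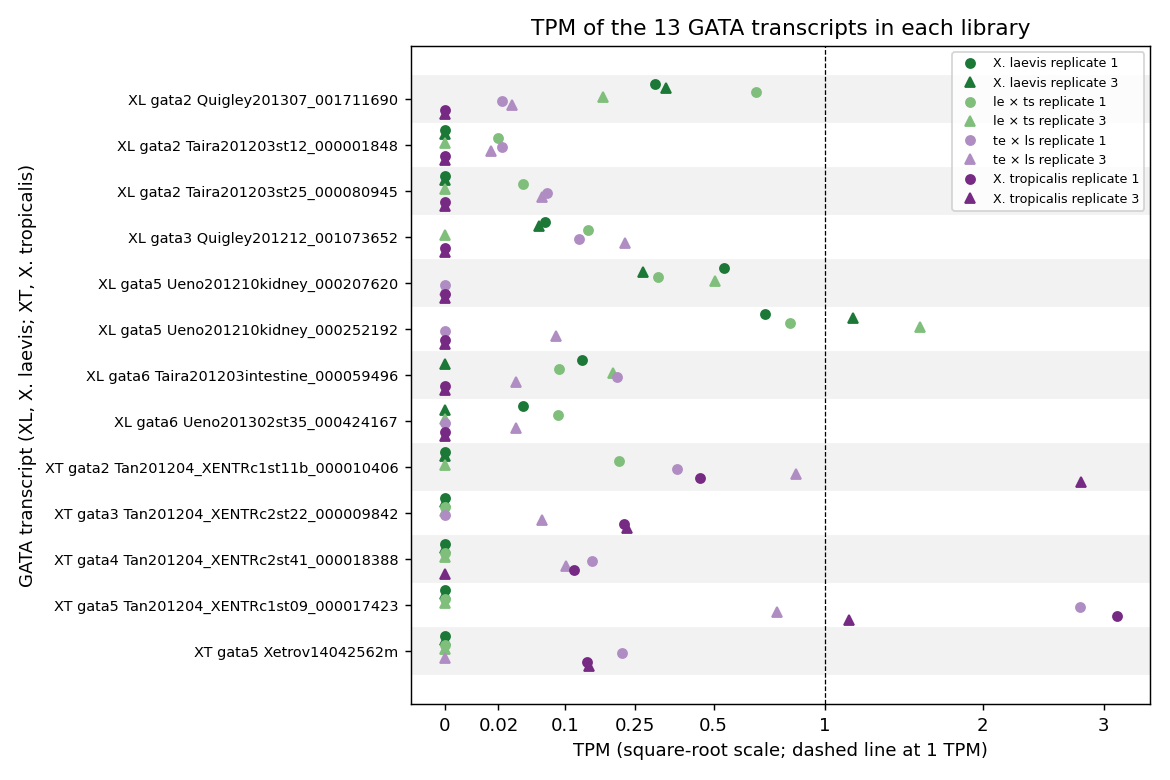
TPM of the 13 GATA transcripts (rows) in each of the 8 libraries, on a square-root axis, with colour for the group, circles for replicate 1, triangles for replicate 3 and a dashed line at 1 TPM. Only 6 points reach 1 TPM, and they belong to *gata5* of both species and *gata2* of *X. tropicalis*.

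By mean level in embryos of its own species, a *gata5* transcript led the family in both frogs. This gene encodes an activator of endodermal genes that is known for its place early in frog endoderm formation. *X. laevis gata5* Ueno201210kidney_000252192 stood at 0.709 and 1.155 TPM in *X. laevis* embryos, at 0.824 and 1.561 in le × ts, at 0 and 0.085 in te × ls and at 0 in both *X. tropicalis* libraries. The 2 groups from *X. laevis* eggs overlapped, and in both of them replicate 3 was the higher library. Group means were 0.932 ± 0.315 TPM (SD, n = 2) in *X. laevis* and 1.19 ± 0.521 TPM (SD, n = 2) in le × ts. On the log2(TPM + 1) scale, which understates changes of such low transcripts, the difference between le × ts and *X. laevis* was 0.17 (standard error 0.455, 95% interval -0.99 to 1.34), with an adjusted p of 1 by limma. The second *X. laevis gata5* transcript, Ueno201210kidney_000207620, was lower, at 0.541 and 0.273 TPM in *X. laevis*, 0.316 and 0.505 in le × ts and 0 in the other 4 libraries. Its le × ts values lay between its *X. laevis* values, so that the groups overlapped here too.

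*X. tropicalis gata5* Tan201204_XENTRc1st09_000017423 held the highest single GATA value of the series, although *X. tropicalis gata2* was above it in *X. tropicalis* replicate 3 and te × ls replicate 3. It stood at 3.123 and 1.131 TPM in *X. tropicalis* embryos and at 2.789 and 0.762 in te × ls, and was listed at 0 in all 4 libraries from *X. laevis* eggs. In both groups replicate 1 was the higher library, the reverse of the order seen in the leading *X. laevis gata5* transcript. The second *X. laevis gata5* transcript was higher in replicate 1 in *X. laevis* and in replicate 3 in le × ts. For Tan201204_XENTRc1st09_000017423 the groups overlapped. The means were 2.13 ± 1.41 TPM (SD, n = 2) in *X. tropicalis* and 1.78 ± 1.43 TPM (SD, n = 2) in te × ls. The log2 difference of te × ls from *X. tropicalis* was -0.20 (standard error 0.545, 95% interval -1.67 to 1.28), with an adjusted p of 1 by limma, and its sign turned to 0.28 without *X. tropicalis* replicate 1 and to 0.35 without te × ls replicate 3. Leaving out a library left the replicate numbers unbalanced between the groups. Within each replicate number te × ls was the lower library. The other *X. tropicalis gata5* transcript, Xetrov14042562m, was at 0.141 and 0.144 TPM in *X. tropicalis*, 0.218 and 0 in te × ls and 0 elsewhere. Both species thus had 1 *gata5* transcript near or above 1 TPM and 1 below it, and neither hybrid differed from its egg species beyond the spread between libraries. That spread was taken without pairing by replicate number. With the number in the fit, the adjusted p by limma was 0.960 for the leading *X. laevis gata5* transcript and 0.719 for the *X. tropicalis* one.

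Of the other endodermal members, *gata4* is best known for heart and gut formation and *gata6* for endoderm and heart. *X. tropicalis gata4* was listed at 0.116 and 0 TPM in *X. tropicalis* and 0.15 and 0.102 in te × ls, with 0 in the 4 libraries from *X. laevis* eggs. *X. laevis gata6* Taira201203intestine_000059496 was at 0.13 and 0 TPM in *X. laevis*, 0.09 and 0.195 in le × ts and 0.205 and 0.035 in te × ls. The second *gata6* transcript, Ueno201302st35_000424167, was at 0.043 and 0 in *X. laevis*, 0.089 and 0 in le × ts and 0 and 0.035 in te × ls. Each of these 3 transcripts had a 0 in at least 1 library of its own species, and its values in te × ls overlapped those of its own species, as did both *gata6* transcripts in le × ts.

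Among the blood and ectodermal members, *gata2* is required for blood stem cells in mice and is an early ventral gene in frogs. *X. tropicalis gata2* was at 0.45 and 2.796 TPM in *X. tropicalis*, at 0.374 and 0.852 in te × ls, at 0.21 and 0 in le × ts and at 0 in *X. laevis*. Replicate 3 was the higher library in both groups from *X. tropicalis* eggs, opposite to the leading *X. tropicalis gata5* transcript, and the groups overlapped. Their means were 1.62 ± 1.66 TPM and 0.613 ± 0.338 TPM (SD, n = 2 each), so that the SD of *X. tropicalis* embryos exceeded its mean. The same replicate number was the higher one in both groups for many *X. tropicalis* transcripts of the lists given further on, though not for all. Named here after their values were seen were *mix1*, at 31.1 and 98.8 TPM in *X. tropicalis* and 11.7 and 34.2 in te × ls, and *lmo2*, at 0 and 6.16 TPM and at 0.258 and 7.08. In le × ts the order of *X. tropicalis mix1* was the reverse, at 16.6 and 4.81 TPM. What sets the 2 replicate numbers apart was not tested.

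Of the 3 *X. laevis gata2* transcripts only Quigley201307_001711690 was found in *X. laevis* embryos, at 0.306 and 0.34 TPM. It was at 0.672 and 0.174 in le × ts, the values on either side of the *X. laevis* pair, and at 0.023 and 0.031 in te × ls. Taira201203st12_000001848 was listed at 0 in *X. laevis* and *X. tropicalis*, at 0.02 and 0 in le × ts and at 0.023 and 0.015 in te × ls. Taira201203st25_000080945 had the same pattern at 0.042 and 0 in le × ts and 0.073 and 0.066 in te × ls. Summed per symbol, *X. laevis gata2* gave 0.306 and 0.34 TPM in *X. laevis*, 0.734 and 0.174 in le × ts and 0.119 and 0.112 in te × ls.

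The last gene of the family with rows in both species was *gata3*, which is known for T helper cells in mammals and for non-neural ectoderm in frogs. The *X. laevis* transcript stood at 0.07 and 0.062 TPM in *X. laevis*, 0.142 and 0 in le × ts and 0.124 and 0.226 in te × ls. Both te × ls libraries were thus above both *X. laevis* libraries, with every value under 1 TPM. The *X. tropicalis* transcript was at 0.223 and 0.23 TPM in *X. tropicalis* and 0 and 0.066 in te × ls, and at 0 in the other 4 libraries. Both of its te × ls values lay below both of its *X. tropicalis* values in TPM. However, *X. tropicalis* replicate 3 was estimated to hold 0.357 times the reads of *X. laevis* replicate 1, and te × ls replicate 3 1.24 times. Groups did not overlap for 17.5% of tested *X. tropicalis* transcripts, which do not include this low one.

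Ordered by mean level in embryos of their own species, the *X. laevis* symbols ran from *gata5* (1.34 ± 0.126 TPM, summed over transcripts) through *gata2* (0.323 ± 0.0240) and *gata6* (0.0865 ± 0.122) to *gata3* (0.0660 ± 0.00566), each with SD and n = 2. Here *gata5* and *gata2* were each apart from their neighbours in both libraries, while *gata6* and *gata3* overlapped. The *X. tropicalis* order was *gata5* (2.27 ± 1.41 TPM), *gata2* (1.62 ± 1.66), *gata3* (0.227 ± 0.00495) and *gata4* (0.0580 ± 0.0820). The first 2 overlapped, while *gata2* lay above *gata3* and *gata3* above *gata4* in both libraries, although *gata2* and *gata3* differed by less than the SD of *gata2*. The family was at the low end of all transcripts. In *X. laevis* embryos between 0% and 18.0% of *X. laevis* transcripts had a lower mean than a given GATA transcript, and in *X. tropicalis* between 2.14% and 23.8%. The median GATA transcript had 0.0655 TPM against 16.5 TPM for all *X. laevis* transcripts, and 0.227 TPM against 23.8 TPM for all *X. tropicalis* transcripts. Under 1 TPM in both libraries of their species were 7 of 8 *X. laevis* GATA transcripts, against 16.2% of all, and 3 of 5 *X. tropicalis* ones, against 15.9%.

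**Figure D2:**
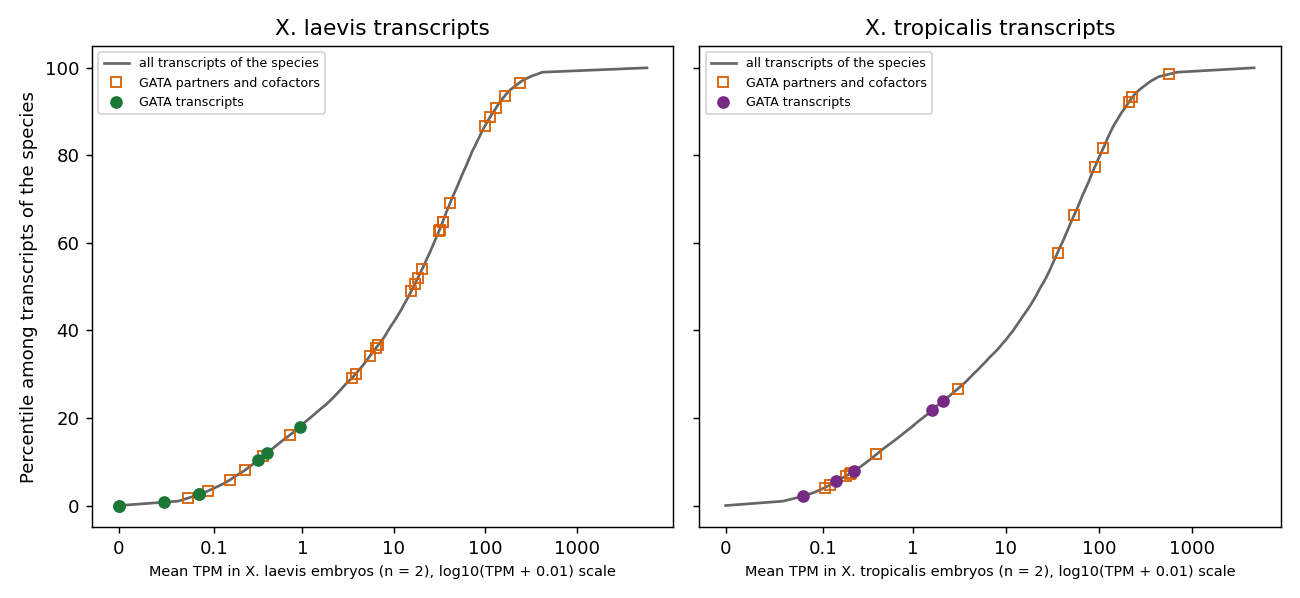
Percentile of each transcript among all transcripts of its species (y) against its mean TPM over the 2 libraries of that species (x, log10(TPM + 0.01)), for *X. laevis* on the left and *X. tropicalis* on the right. Filled circles, the GATA transcripts, reach no higher than 18.0% and 23.8% on the curve of all transcripts, while the open squares, GATA partners and cofactors, spread over most of it.

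The low values could be read as steps. A transcript's lowest value above 0 was taken as 1 step, which is at least 1 read, and its other values were divided by that step after scaling for the reads of each library. For 8 of the 13 transcripts every value lay within 0.1 of a whole number of steps. These 8 transcripts had 31 values above 0, of which 26 were at 1 to 3 steps and 14 at 1 step. Each transcript had a value at 1 step by definition. The largest value was 17 steps, for *X. laevis gata2* Quigley201307_001711690 in le × ts replicate 1. That transcript was at 8 and 10 steps in *X. laevis* and 1 and 1 in te × ls, *X. laevis gata3* was at 1 and 1 steps in *X. laevis* and 3 and 4 in te × ls, and *gata6* Taira201203intestine_000059496 ranged from 0 to 8 steps. *X. tropicalis gata3* was at 3 and 1 steps in *X. tropicalis* and 0 and 1 in te × ls, so that its replicate 3 libraries were level. The *gata5* and *X. tropicalis gata2* values did not fall on whole steps, so that no step count is given for them.

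**Figure D3:**
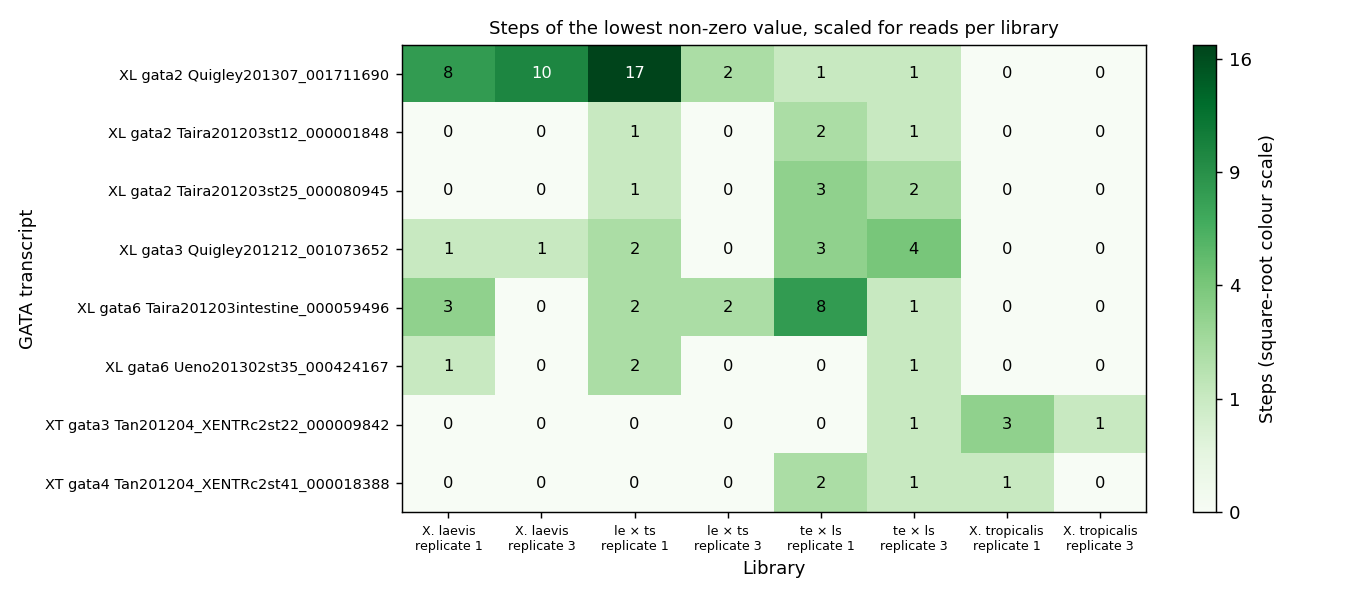
Whole steps of 8 GATA transcripts (rows) in each library (columns), where 1 step is the transcript's lowest value above 0 after scaling for the reads of the library, with colour on a square-root scale. Most filled cells hold 1 to 3 steps, and the highest cell, 17, is *X. laevis gata2* in le × ts replicate 1.

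Each hybrid was compared with its egg species, from which it differs by holding the foreign sperm genome in place of the egg species' own. The gain of the foreign genome and the loss of the own sperm genome cannot be told apart here. A transcript was tested where at least 2 of the 4 libraries held 1 TPM or more, which 1 of the 13 GATA transcripts passed in each comparison, *X. laevis gata5* in le × ts and *X. tropicalis gata5* in te × ls. Their groups overlapped, as did those of most tested transcripts. Libraries did not overlap for 18.7% of tested *X. laevis* transcripts in le × ts and for 17.5% of tested *X. tropicalis* transcripts in te × ls. A transcript was called at an adjusted p under 0.05 and a log2 difference beyond 1. By limma 0 GATA transcripts were called in either comparison, against a background of 0% of 17526 transcripts in le × ts and 0% of 12073 in te × ls. As nothing was called at all, the count says nothing about GATA transcripts in particular. This fit did not pair libraries by replicate number. With that number as a block, 141 transcripts were called in le × ts and 454 in te × ls, 0 of them GATA transcripts. The paper, which used edgeR, did report genes of both species that differed between le × ts and *X. laevis*. At an unadjusted p under 0.05 by limma there were 209 and 565 transcripts, 0 of them GATA transcripts, and no tool other than limma was run here. With no filter all 13 were tested, and 0 in le × ts and 5 in te × ls had an unadjusted p under 0.05 by limma, as did 3.53% and 8.39% of all 34647 transcripts. These 5 were the 3 *X. laevis gata2* transcripts and *X. laevis gata3*, all higher in te × ls, and *X. tropicalis gata3*, lower in te × ls. For the *X. laevis* ones the direction was fixed by *X. tropicalis* libraries at 0, so that no conclusion is drawn from their p-values. None is drawn for *X. tropicalis gata3* either, which was at 1 step in replicate 3 of both groups. The lowest adjusted p by limma was 0.0901, for *gata2* Taira201203st25_000080945. Its log2(TPM + 1) difference was 0.10 with a standard error of 0.00428, both te × ls libraries being above 0 and both *X. tropicalis* libraries at 0.

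Transcription from the sperm genome was read from transcripts of the sperm species, since an egg of the other species brings none. At 1 TPM or more in both hybrid libraries and under 1 TPM in both libraries of the egg species, 0 of 5 *X. tropicalis* GATA transcripts were detected in le × ts, where 1.28% of all *X. tropicalis* transcripts were, and 0 of 8 *X. laevis* GATA transcripts in te × ls, where 1.94% of all *X. laevis* transcripts were. With this few members, counts of 0 are near these shares. At the lower limit of any value above 0 in both hybrid libraries and 0 in both of the egg species, chosen after the values were seen, 0 of 5 were found in le × ts, against 3.15% of all, and 5 of 8 in te × ls, against 16.2% of all and 14.2% of the 3336 *X. laevis* transcripts that were under 1 TPM in *X. laevis* embryos. The 5 were all 3 *gata2* transcripts, *gata3* and *gata6* Taira201203intestine_000059496, at 0.015 to 0.226 TPM. In 3 of the 8, *gata2* Taira201203st12_000001848, *gata2* Taira201203st25_000080945 and *gata3*, both te × ls libraries were also above both *X. laevis* libraries, against 0.509% of all *X. laevis* transcripts and 2.91% of those under 1 TPM. These counts are descriptions with no test, and the identifiers do not say whether the 3 *gata2* transcripts are pieces of 1 copy. The te × ls libraries were estimated to hold 1.68 and 1.24 times the reads of *X. laevis* replicate 1, and *X. tropicalis* replicate 3 held 0.357 times. In that library 1 step would be 0.108, 0.0520 and 0.114 TPM for the 3 *gata2* transcripts, above every te × ls value of the same transcript. The part of these differences in depth in the count was not tested. The *X. laevis gata5* transcripts, the most abundant GATA transcripts of *X. laevis* embryos, were at 0 in both te × ls libraries or at 0 and 0.085 TPM.

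In the opposite cross a value above 0 came from a single member and library, *X. tropicalis gata2* at 0.21 TPM in le × ts replicate 1, its lowest value after scaling for the reads of each library. The le × ts libraries were estimated to hold fewer reads than the te × ls libraries, at 0.973 and 0.439 times those of *X. laevis* replicate 1. In le × ts replicate 3, 1 step would be 0.186 TPM for *X. tropicalis gata3* and 0.288 TPM for *gata4*. The part of depth in the contrast between the crosses was not tested. *X. tropicalis gata5* Tan201204_XENTRc1st09_000017423, which reached 1 TPM in both *X. tropicalis* libraries, was at 0 in both le × ts libraries. Among the 10988 *X. tropicalis* transcripts at that level in their own species, 38.0% were likewise at 0 in both le × ts libraries and the median level was 0.0927% of that in *X. tropicalis* embryos, whose RNA comes from the egg as well as from zygotic transcription. None of the *X. laevis* GATA transcripts, 0 of 8, reached 1 TPM in both *X. laevis* libraries.

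**Figure D4:**
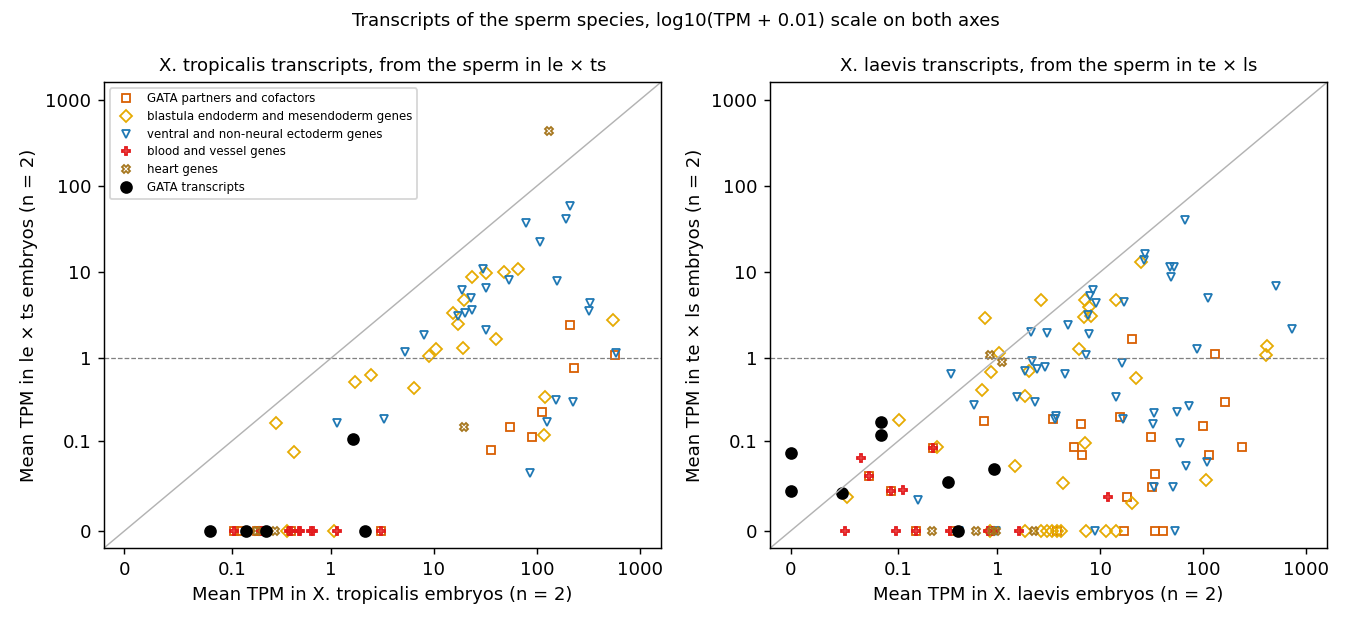
Mean TPM of sperm-species transcripts in each hybrid (y) against their mean in embryos of that species (x), both on log10(TPM + 0.01) axes, for le × ts on the left and te × ls on the right, with a line of equality and a dashed line at 1 TPM. Black circles, the GATA transcripts, all lie below 1 TPM in both hybrids, while many endoderm and ectoderm genes lie above it.

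Some partners of GATA factors were abundant in the same embryos and others were as low as the GATA transcripts. Of 16 partner and cofactor symbols 14 had a row, with 25 *X. laevis* and 14 *X. tropicalis* transcripts, of which 19 and 7 reached 1 TPM in both libraries of their species, and the median transcript had 16.9 TPM in *X. laevis* and 19.5 TPM in *X. tropicalis* embryos. The Fog cofactor *zfpm1* was at 36.8 and 35.0 TPM in *X. tropicalis* and 36.9 and 35.1 in te × ls, and *ldb1*, the adaptor that bridges LIM-domain proteins, at 218.4 and 234.4 TPM and at 212.2 and 242.5. The blood partner *tal1* was at 0.405 and 0 TPM in *X. tropicalis* and at 0 and 0.095 TPM in *X. laevis*. The other Fog cofactor, *zfpm2*, was at 0.034 and 0.209 TPM in *X. tropicalis* and 2.82 and 4.85 TPM in *X. laevis*. The *X. tropicalis* transcripts of *fli1*, *gfi1b*, *runx1* and *tbx5*, factors of blood, vessel or heart, lay between 0 and 0.448 TPM in *X. tropicalis* embryos. By limma 0 of 20 tested *X. laevis* partner transcripts were called in le × ts, with 0 at an unadjusted p under 0.05 and a median log2 difference of 0.12 against 0.01 over all, and 0 of 8 *X. tropicalis* ones in te × ls, with 0 at an unadjusted p under 0.05 and a median of 0.00 against -0.01. At an unadjusted p under 0.05 by limma were 1.19% and 4.68% of all tested transcripts of both species. Of the sperm species, 0 of 14 partner transcripts were detected in le × ts and 0 of 25 in te × ls. Over all transcripts of the sperm species the shares were 1.28% and 1.94%, and with this few members counts of 0 are near them.

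Sperm-species transcripts of other genes in the pathways where GATA factors act were detected in both hybrids. Of 19 blastula endoderm and mesendoderm symbols all had a row, and 5 of 21 *X. tropicalis* transcripts were detected in le × ts and 10 of 35 *X. laevis* transcripts in te × ls, against 1.28% and 1.94% of all transcripts. This list holds *mix1*, and the ectoderm list below holds *ventx2*, *foxi4*, *klf17* and *id3*. The paper had picked these genes as paternally expressed from the same le × ts embryos, so that the le × ts counts were partly built in. *X. tropicalis mix1*, a homeobox gene of mesendoderm, was at 16.6 and 4.81 TPM in le × ts and 0 in both *X. laevis* libraries, and *X. laevis sox17b*, an endodermal Sox gene, was at 9.49 and 16.5 TPM in te × ls and 0 in both *X. tropicalis* libraries. The *gata5* transcripts of the same sperm genomes stood at 0 to 0.085 TPM. Of 23 ventral and non-neural ectoderm symbols 22 had a row, with 12 of 25 transcripts detected in le × ts and 16 of 48 in te × ls. *X. tropicalis klf17*, a Kruppel-like factor of ventral ectoderm, reached 83.7 and 33.6 TPM in le × ts, and *X. laevis ventx2*, a ventral homeobox gene, 24.5 and 56.0 TPM in te × ls, while *gata2* of the same sperm genomes stood at 0 to 0.21 TPM. The examples are the most abundant rows of each list and hybrid. In te × ls, *X. laevis klf17* TXGP201107_000401349 was at only 0.161 and 0.164 TPM, and *X. laevis mix1* Ueno201210st10_000053205 at 0.132 and 0.059. Levels in the own species also differed, at 149.0 and 265.2 TPM for *X. tropicalis klf17* against 0.45 and 2.796 for *gata2*. The part of that difference was not tested.

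Most blood and vessel transcripts were under 1 TPM. The 14 *X. laevis* and 10 *X. tropicalis* transcripts of the blood and vessel list, from 13 of 17 symbols, had medians of 0.191 and 0.490 TPM in embryos of their species. From the sperm, 0 of 10 and 0 of 14 were detected in le × ts and te × ls, near the 1.28% and 1.94% of all transcripts. Higher levels were found for *X. laevis mpo*, a gene of myeloid cells, at 9.48 and 14.6 TPM in *X. laevis* and 8.16 and 33.5 in le × ts, and for *X. tropicalis lmo2*, at 0 and 6.16 TPM in *X. tropicalis*. The heart list had rows for 6 of 11 symbols, with medians of 0.880 TPM over 7 *X. laevis* and 9.89 TPM over 4 *X. tropicalis* transcripts. Of those 4, *hand2* was at 14.9 and 24.1 TPM and *tnnt2*, a heart troponin, at 118.0 and 146.1 TPM in *X. tropicalis*, and *mef2c* and *tbx5* were at 0.296 TPM or less. The *X. tropicalis tnnt2* row also stood at 108.2 and 103.4 TPM in *X. laevis* embryos and 754.5 TPM in le × ts replicate 3, so that it does not separate the species. From the heart list, 0 of 4 transcripts were detected in le × ts and 1 of 7 in te × ls, against the same shares of 1.28% and 1.94%. The 1 detected was a *hand2* transcript, which encodes a heart and ventral mesoderm factor, at 1.18 and 1.02 TPM.

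By limma 0 transcripts of the endoderm, ectoderm, blood and heart lists were called in either comparison. For the egg species of le × ts, the median over 27 endoderm transcripts was -0.37 and over 43 ectoderm transcripts -0.64, with 0 and 3 at an unadjusted p under 0.05, against a median of 0.01 over all. For the egg species of te × ls, the medians were -1.01 over 16 and -1.04 over 24, against -0.01 over all. Of these, 5 and 4 had an unadjusted p under 0.05 by limma. Over all tested transcripts of both species, such p-values were found for 1.19% in le × ts and 4.68% in te × ls. The share over egg-species transcripts alone was not calculated. Each hybrid also lacks the sperm genome of its egg species, whose part in these medians was not tested. Sperm-species transcripts of these lists that passed the filter through the hybrid libraries had their direction set by it, and no count or median is given for them.

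The transcripts whose profiles were nearest to the leading GATA transcript of each species were taken by the root mean square difference in log2(TPM + 1) over the 8 libraries. For *X. laevis gata5* they were *b4galt4* (0.0654), *pde10a* (0.0676) and *rhou* (0.0794). For *X. tropicalis gata5* they were *c6orf118* (0.0490), *syt16* (0.110) and *atp7b* (0.117). The nearest of these, *c6orf118*, was at 3.201 and 1.295 TPM in *X. tropicalis* and 2.918 and 0.68 in te × ls, with the same higher replicate 1. All 6 were low transcripts whose likeness is one of level and replicate order.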

How the data were processed

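The authors sequenced polyA RNA as paired reads, mapped them with Bowtie to the joined transcript sets of both frogs, allowing no mismatch and discarding reads with more than 1 target, and calculated TPM with RSEM; the submitters' processing notes also name BWA 0.7.10. The deposited TPM values, 1 row per transcript and 1 column per library, were used as given, and reads that fit both species or both homeologous copies are therefore absent. Read totals were not part of the values used, so depth was estimated from ratios of values between 0.03 and 0.3 TPM. Hybrids were compared with their egg species by limma 3.58.1 in R 4.3.3 on log2(TPM + 1), for transcripts at 1 TPM or more in 2 of 4 libraries, with a mean trend and Benjamini-Hochberg adjustment over both species; the study's count test needs reads. A permutation of 2 against 2 libraries cannot go below p = 0.333. The script was tested on simulated data. Every GATA transcript was named, with the 3 nearest transcripts of the leading one per species. The members and the gene lists were chosen with earlier results of these data known. Alternatives were other pseudocounts, filters, scalings, fits and detection levels, a replicate block and leaving out each library.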

Additional observations from a re-analysis of the deposited data

How the results depend on the processing

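The count of GATA transcripts called was 0 in all 17 alternatives of each comparison, of which 3 in le × ts and 1 in te × ls tested no GATA transcript. The log2 difference of *X. laevis gata5* was positive in all 13 alternatives that gave a value of their own (0.00 to 0.42). It was not tested with the filter at 5 TPM, nor without *X. laevis* replicate 3 or le × ts replicate 3. Without le × ts replicate 3, the remaining le × ts value (0.824 TPM) lies between the *X. laevis* values (0.709 and 1.155 TPM), so that a stable sign is not shown. The difference of *X. tropicalis gata5* kept its sign in 13 of 15 (-0.75 to 0.35). The exceptions were 0.28 without *X. tropicalis* replicate 1 and 0.35 without te × ls replicate 3. Where no library was left out, the lowest adjusted p by limma was 0.960 and 0.719. The count over all transcripts, 0 in both comparisons, moved more. In le × ts it was 17 with all 4 groups in 1 fit, 81 with adjustment within each species, and 0 to 1 on leaving out each library, the 1 without *X. laevis* replicate 1. In te × ls it was 230 and 26 with pseudocounts of 0.1 and 0.5, 201 with all 4 groups in 1 fit, 183 without the mean trend, 389 with adjustment within each species, 64 with TPM summed per symbol, and 0 to 30 on leaving out each library, the 30 without *X. tropicalis* replicate 3. With the replicate block it was 141 in le × ts and 454 in te × ls, with 0 GATA transcripts and adjusted p by limma of 0.960 and 0.719 for *gata5*. Where sperm-species transcripts reached 1 TPM only through the hybrid libraries, the filter set their direction as higher, so that no conclusion is drawn from it. Most calls were sperm-species transcripts higher in the hybrid. In le × ts they were 16 of the 17, all 81 and 114 of the 141. In te × ls they were 229 of the 230, all 26, 197 of the 201, all 183, all 389, all 64 and 327 of the 454. Deviations of same-numbered libraries correlated at 0.764 and 0.842, but with 2 pairs the libraries share only a number. Detection above 0 TPM, added after the data were seen, gave 5 *X. laevis* GATA transcripts in te × ls. The cause of these moves was not tested. Leaving out a library left 1 in its group, which was assumed to vary like the others, and left the replicate numbers unbalanced between groups. Of the 31 low values that could be read as steps, in 8 of 13 transcripts, 26 were at 1 to 3 steps. The lowest value of each transcript was 1 step by definition, and the part of depth in these values was not tested.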
